A study of Mus musculus with 3 samples.

Results

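Among 17879 quality-filtered mouse bone marrow cells, 716 cells with a high share of myeloperoxidase (Mpo) RNA are described here. They were chosen by their own RNA. Cells were kept with at least 500 unique molecular identifiers (UMIs, counts of individual captured RNA molecules), at least 200 genes and under 10% of UMIs from mitochondrial genes. The 5% of kept cells with the highest Mpo share of UMIs, pooled over all libraries, were then taken. Cells with 2% or more of their UMIs from the secondary granule genes Ltf, Ngp, Camp and Lcn2 were left out, as were cells with at least 1 UMI of the stem and progenitor gene Cd34. Of 894 cells over the Mpo limit, 159 had Cd34 and 20 had secondary granule RNA, with 1 cell among both.

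The study profiled murine marrow by droplet 3' single-cell RNA sequencing in 3 libraries. The homozygous Fabp4 knockout library held 191 of the Mpo-high cells, the heterozygous knockout library 149 and the wild-type library 376. Each library pooled 2 mice, and no record used here assigns its cells to either of them. Age, strain, the deleted part of Fabp4 and the presence of leukaemia in the marrow are not given in the labels used here. The labels speak of knockout mice and name no Cre driver or transgene. With 1 library per genotype no test was possible, so each difference below is between libraries, each interval is a 95% counting interval, and the spread between mice is not in it. Genotype, mouse, sex and library cannot be told apart. In particular, fewer RNA copies per cell and fewer cells with the RNA are not separated by a summed level.

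Fabp4, the adipocyte fatty acid-binding protein, was almost absent from marrow cells. Kept cells held 5 Fabp4 UMIs in the homozygous library (0.108 CPM, UMIs of the gene per 1000000 UMIs), 38 in the heterozygous library (0.521 CPM) and 50 in the wild-type library (0.745 CPM). The library labelled homozygous was the lowest. Genotypes follow the genotype label of each library. The titles carry the letters W, H and K alone, and reading H as heterozygous and K as knockout would exchange every homozygous and heterozygous value below. The Mpo-high cells held 0 Fabp4 UMIs in the homozygous library, 0 in the heterozygous library and 3 in the wild-type library. By the counting interval, 0 UMIs allow up to 1.27 CPM in the homozygous and 1.73 CPM in the heterozygous cells. A difference in Fabp4 within the Mpo-high cells was not detectable at this depth.

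The libraries also differed in sex-linked RNA. Of the Mpo-high cells, 172 of 191 in the homozygous library and 365 of 376 in the wild-type library had Xist, the RNA of the inactive X chromosome, and no Y-linked RNA. In the heterozygous library 79 of 149 cells had Y-linked RNA and no Xist, 25 had Xist alone, 24 had both and 21 neither. Summed Y-linked RNA was 5.53 CPM in homozygous, 303 CPM in heterozygous and 4.08 CPM in wild-type Mpo-high cells. The heterozygous comparison below therefore sets a library with many Y-positive cells against a library of Xist-positive ones, and values of the Xist-only cells, 25 in the heterozygous library, are given beside some results. Between Xist-only and Y-only cells of that library, sex and mouse cannot be told apart.

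Promyelocytes are the stage of granulocyte development at which the azurophil, or primary, granules are built. Mpo, which makes hypochlorous acid, and the serine proteases Elane (neutrophil elastase), Prtn3 (proteinase 3) and Ctsg (cathepsin G) are packed into these granules. The proteins pass through the endoplasmic reticulum, where Calr (calreticulin) is a chaperone of Mpo. Later, at the myelocyte stage, secondary granule proteins such as lactoferrin take over, and primary granule genes are switched off. PU.1, C/EBP and RUNX1 factors are known regulators of these genes in myeloid cells.

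The promoters of the 4 granule genes are shown because Mpo RNA chose the cells and the RNAs of Elane, Prtn3 and Ctsg were higher in them than in the other kept cells. Each is 300 bases in the RefSeq build GRCm38.p6, read along the gene's strand, 250 bases before the start site and 50 after. They lie at chr11:87793534-87793833 (Mpo, plus strand), chr10:79886062-79886361 (Elane, plus strand), chr10:79879417-79879716 (Prtn3, plus strand) and chr14:56102525-56102824 (Ctsg, minus strand). Capitals mark the PU.1 core GAGGAA and the RUNX core TGTGGT, each searched on both strands, so the RUNX core can read ACCACA.
Mpo: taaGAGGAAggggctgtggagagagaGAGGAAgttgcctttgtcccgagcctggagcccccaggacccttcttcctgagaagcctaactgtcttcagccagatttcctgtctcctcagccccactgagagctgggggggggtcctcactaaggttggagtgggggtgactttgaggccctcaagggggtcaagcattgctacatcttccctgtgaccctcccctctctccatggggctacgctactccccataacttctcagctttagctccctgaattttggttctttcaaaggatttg
Elane: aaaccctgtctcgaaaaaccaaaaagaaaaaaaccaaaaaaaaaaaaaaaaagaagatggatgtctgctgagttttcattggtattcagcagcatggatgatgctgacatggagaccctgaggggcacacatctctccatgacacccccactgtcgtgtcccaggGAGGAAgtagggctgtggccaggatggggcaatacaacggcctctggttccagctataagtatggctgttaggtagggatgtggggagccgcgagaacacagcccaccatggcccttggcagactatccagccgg
Prtn3: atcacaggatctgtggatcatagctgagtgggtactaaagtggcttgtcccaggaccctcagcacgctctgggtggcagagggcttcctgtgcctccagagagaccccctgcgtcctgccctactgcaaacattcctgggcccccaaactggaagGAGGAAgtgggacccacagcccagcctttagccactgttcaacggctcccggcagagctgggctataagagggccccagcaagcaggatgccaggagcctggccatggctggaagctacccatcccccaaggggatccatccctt
Ctsg: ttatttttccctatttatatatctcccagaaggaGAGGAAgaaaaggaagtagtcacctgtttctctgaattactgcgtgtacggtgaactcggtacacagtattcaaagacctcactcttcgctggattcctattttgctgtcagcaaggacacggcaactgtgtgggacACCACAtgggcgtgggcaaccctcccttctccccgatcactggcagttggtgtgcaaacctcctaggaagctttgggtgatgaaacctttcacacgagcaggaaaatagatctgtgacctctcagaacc

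All 4 promoters held GAGGAA on the gene's own strand. Mpo had it at positions -247 and -224 from the start site, Ctsg at -216, Prtn3 at -95 and Elane at -85. The closely spaced Elane and Prtn3 genes thus had it at similar distances. Ctsg also held the RUNX core, at -79. The pattern TTNNGNAA, a short form of the C/EBP site, was in none of the 4. Of all 32544 promoters in the table, 28.12% held GAGGAA or its reverse, 16.68% the RUNX core and 40.67% the C/EBP form. These matches are letters in a window and carry no evidence of binding.

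Mpo was high because it chose the cells, and averaged 2889 CPM in homozygous, 2543 CPM in heterozygous and 2770 CPM in wild-type Mpo-high cells, against 156, 122 and 210 CPM in the other kept cells of the same libraries, taken in the same order. Elane, Prtn3, Ctsg and Calr, which the choice did not use by name, were above the other cells too. Elane had 8793, 6148 and 8457 CPM in the Mpo-high cells and 1710, 1063 and 1515 CPM in the other cells, again in that order. Prtn3 had 5592, 4635 and 4883 CPM against 1561, 884 and 1658 CPM, and Ctsg 2226, 1348 and 1469 CPM against 266, 159 and 190 CPM. Calr was highest in the homozygous Mpo-high cells, at 1026 CPM, with 689 CPM in the heterozygous and 830 CPM in the wild-type ones. Since the cells were chosen by their RNA, these levels are descriptions, and no test sets the Mpo-high cells against the rest.

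**Figure D1:**
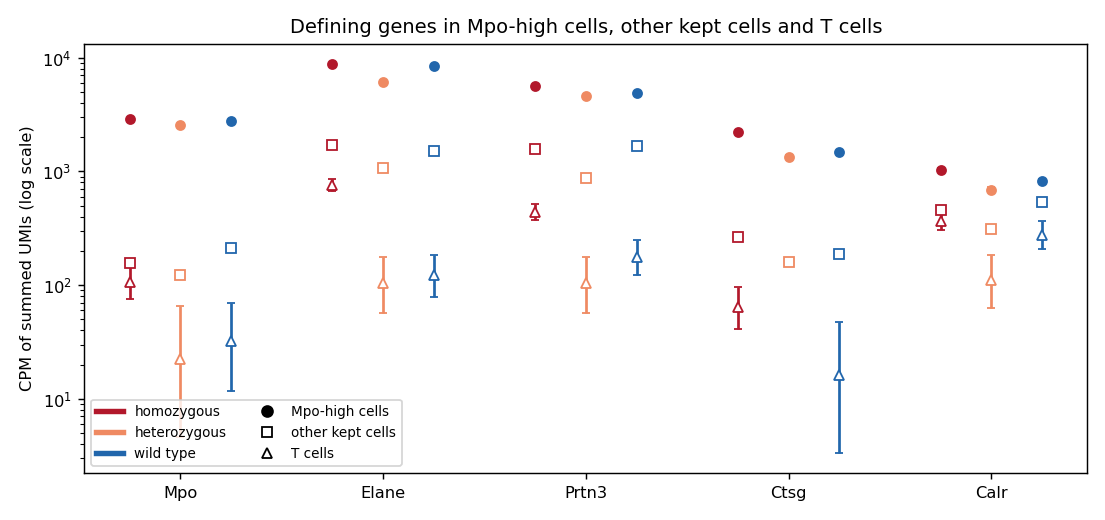
CPM of Mpo, which chose the cells, and of Elane, Prtn3, Ctsg and Calr (log axis). Levels are shown in Mpo-high cells, other kept cells and T cells of each library, with 95% exact Poisson intervals. Ctsg was at 0 UMIs in heterozygous T cells and is not drawn. Every Mpo-high level lies above the level in the other kept cells and in the T cells of its library.

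Summed B cell and erythroid markers were far below summed monocyte markers in the Mpo-high cells. The monocyte sums were in turn below those of the other kept cells. The 9 monocyte markers summed to 1603, 1462 and 1180 CPM in homozygous, heterozygous and wild-type Mpo-high cells, against 3477, 1790 and 2275 CPM in the other cells, with 0 of the 9 at zero. Dendritic cell markers summed to 34.5, 107 and 21.9 CPM. Summed T and natural killer markers had 379, 400 and 415 CPM in homozygous, heterozygous and wild-type Mpo-high cells, and nearly all of it was Nkg7 at 374, 397 and 411 CPM, while Cd3e, the T cell receptor chain partner, had 0, 0 and 0.15 CPM. Erythroid markers summed to 3.11, 11.3 and 4.68 CPM, against 4.05, 72.1 and 2.10 CPM in the other cells. B cell markers summed to 28.3, 20.6 and 30.2 CPM, above the 22.9, 13.5 and 22.6 CPM of the other cells. Genes of earlier progenitors were also counted, some below and some above their level in the other kept cells. Meis1 and Hoxa9, homeobox genes of stem and progenitor cells, reached 601, 756 and 980 CPM and 428, 164 and 253 CPM in that library order, and Mecom, a stem cell transcription factor, 363, 679 and 290 CPM. In the other cells Meis1 had 684, 719 and 1095 CPM and Mecom 565, 696 and 899 CPM, higher than in the Mpo-high cells except for heterozygous Meis1. Hoxa9 and Kit were higher in the Mpo-high cells. Hoxa9 had 259, 124 and 177 CPM in the other cells, and Kit, the stem cell factor receptor, had 60.1, 62.9 and 48.3 CPM in Mpo-high cells and 20.0, 21.2 and 26.7 CPM in the other cells.

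Granule RNA was also counted in T cells, where free RNA and droplets with more than 1 cell cannot be told apart. In T cells, defined by at least 3 UMIs of T cell receptor or Cd3 genes, which should not make granule proteins, Elane had 756 CPM in the homozygous library (29 cells), 104 CPM in the heterozygous library (16 cells) and 123 CPM in the wild-type library (23 cells). Cells of 2000 UMIs or more were also thinned to 2000 UMIs. The 42 homozygous, 14 heterozygous and 15 wild-type Mpo-high cells below that depth are left out of every thinned value. Among thinned Mpo-high cells, an Elane UMI was seen in 99.3% of 149 homozygous, 98.5% of 135 heterozygous and 98.9% of 361 wild-type ones. The T cell shares were 28.6%, 43.8% and 18.2%. Without thinning, 93.2%, 94.0% and 98.1% of all Mpo-high cells had an Elane UMI. The summed levels and thinned shares of Mpo-high cells stand far above these T cell values. Median depths were 13949, 13796 and 15309.5 UMIs in Mpo-high cells and 8934, 7376 and 5996 UMIs in T cells.

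Beyond Mpo, Elane, Prtn3, Ctsg and Calr, the genes highest in Mpo-high over other kept cells in all 3 libraries were Mgl2, Nkg7, Ptprr, Igfbp4, Ms4a3, Far2 and Gstm1. Ms4a3, a cell cycle regulator of granulocyte-monocyte precursors, had 938 CPM in homozygous, 733 CPM in heterozygous and 919 CPM in wild-type Mpo-high cells, against 203, 209 and 174 CPM in the other cells. Igfbp4, an insulin-like growth factor-binding protein, had 84.3, 42.7 and 47.1 CPM against 14.7, 11.8 and 9.67 CPM. Gstm1, a glutathione transferase, had 308, 225 and 264 CPM against 95.5, 56.0 and 82.6 CPM. Each gene was higher in the Mpo-high cells of all 3 libraries.

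Neighbouring cells differed in a graded way. The next 5% of kept cells by Mpo share, 250 homozygous, 166 heterozygous and 239 wild-type cells, held 770, 758 and 770 CPM of Mpo and still 4971, 4643 and 4211 CPM of Elane. Their secondary and tertiary granule genes summed to 14356, 30237 and 12183 CPM, against 8888, 16821 and 9596 CPM in the Mpo-high cells. The cells left out for Cd34, 36, 44 and 79 in number, had Mpo like the chosen cells, at 2894, 2861 and 2535 CPM, and less Elane, at 6171, 5860 and 5677 CPM. The Mpo-high cells held less secondary granule RNA than cells just below the limit and more Elane than the Cd34-positive cells above it. Mpo and Cd34 set these groups apart. Ltf, Ngp, Camp and Lcn2, part of the secondary granule sum, were limited in the Mpo-high cells and in the next 5% alike. These differences are therefore descriptions of the choice.

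The Mpo-high cells made up 4.42% of kept cells in the homozygous library (exact interval 3.83 to 5.08), 1.87% in the heterozygous library (1.59 to 2.19) and 6.71% in the wild-type library (6.07 to 7.40). The share was 2.29 percentage points lower in the homozygous library than in the wild type (a difference of -2.29, Newcombe interval -3.18 to -1.38) and 4.84 points lower in the heterozygous library (-4.84, -5.58 to -4.13). The homozygous difference shrank to -0.761 points with the highest 10% of cells taken, and to -0.120 points with 1000 UMIs and a mitochondrial share under 5% required. It grew to -3.54 points when only granulocyte-lineage cells were counted. These had 2% or more of UMIs from Mpo, Elane, Prtn3, Ctsg, Ltf, Ngp, Camp, Lcn2, S100a8 and S100a9. Mpo-high cells below that limit were left out of both counts. The heterozygous difference was between -8.48 and -2.63 points over the settings tried with a limit pooled over the libraries. A limit set within each library fixes the share over it and bears on neither difference.

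The share depended on mitochondrial content. Among kept cells with under 5% mitochondrial UMIs, Mpo-high cells were 3.51%, 1.25% and 4.16% of homozygous, heterozygous and wild-type cells. Between 5 and 10%, they were 6.70%, 6.11% and 15.3%. The 10% limit left out 46.8% of homozygous, 25.8% of heterozygous and 40.6% of wild-type barcodes. Of the left-out barcodes with enough UMIs and genes, 7.33% of 3723 homozygous, 7.28% of 2625 heterozygous and 13.5% of 3774 wild-type ones met the Mpo, Cd34 and granule criteria. The part of mitochondrial content in the difference was not tested.

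The limit on Mpo was low, at 0.127% of UMIs, or 1 Mpo UMI in about 790. The lowest cell inside had 0.1271% and the highest outside 0.1264%. Shallow cells could therefore enter on 1 to 3 Mpo UMIs. Under 2000 UMIs were 42 of 191 homozygous cells (21.99%), 14 of 149 heterozygous cells (9.40%) and 15 of 376 wild-type cells (3.99%), and 37, 13 and 13 cells had no more than 3 Mpo UMIs. These shallow cells were poorer in the other granule RNAs. Elane had 1337, 1564 and 1807 CPM in shallow homozygous, heterozygous and wild-type cells, but 8918, 6172 and 8473 CPM in cells of 2000 UMIs or more. They add few UMIs to the sums that follow, because all sums weight cells by depth.

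**Figure D2:**
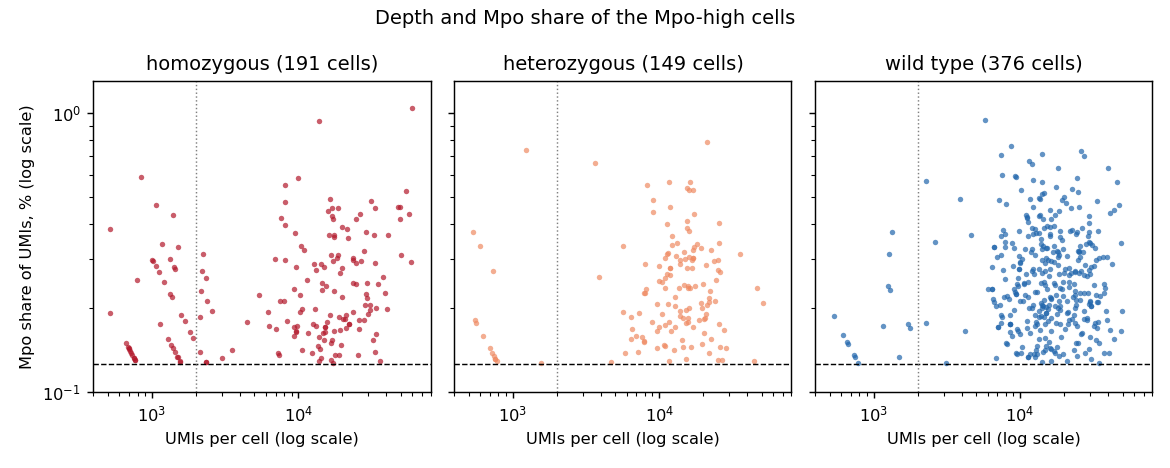
Mpo share of UMIs against UMIs per cell for every Mpo-high cell (both axes log), with the chosen limit dashed and 2000 UMIs dotted. A cluster of shallow cells lies near the limit, made up of 42 homozygous, 14 heterozygous and 15 wild-type cells.

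Within the Mpo-high cells, the top tercile by Mpo share had more primary granule and secretory RNA, and less secondary granule and Hox, Meis and Pbx RNA, than the bottom tercile in each library. Cells of each library were cut into terciles by Mpo share, of 63 or 64 cells in the homozygous, 49 or 50 in the heterozygous and 125 or 126 in the wild-type library. Depth differed between them. The median was 17094.5 UMIs in the top and 9676 UMIs in the bottom tercile of homozygous cells. It was 15478 and 10944 UMIs in heterozygous and 15262 and 14843 UMIs in wild-type cells. The part of depth in the tercile differences was not tested. Ctsg had 2938 CPM in the top and 1319 CPM in the bottom tercile of the homozygous library, 1806 and 915 CPM in the heterozygous library, and 1861 and 964 CPM in the wild-type library. Elane followed with 10518 and 6510 CPM in homozygous, 7360 and 4864 CPM in heterozygous and 10347 and 6584 CPM in wild-type cells. Of 4370 genes compared, Mif, Pebp1, Pdia6, Nme2, Prmt1, Ms4a3, Ddost, Fkbp4 and Cct3 were also among the 15 genes with the clearest excess in the top tercile, judged by the library where it was smallest. Pdia6, a protein disulphide isomerase, had 387 and 209 CPM in the top and bottom terciles of the homozygous library, 218 and 119 CPM in the heterozygous and 326 and 209 CPM in the wild type. Mpo share ranks the cells and shares its UMIs with these sums, so the terciles describe and test nothing.

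Summed by list, primary granule genes, Mpo included, had 33530, 27709 and 31122 CPM in the top terciles of homozygous, heterozygous and wild-type cells, against 22288, 19189 and 21019 CPM in the bottom ones. Translocation, glycosylation and secretory traffic genes had 7374, 5544 and 6495 CPM against 5454, 4770 and 5575 CPM. Likewise, endoplasmic reticulum chaperones and oxidoreductases had 6984, 4988 and 6056 CPM in the top terciles of homozygous, heterozygous and wild-type cells, against 5253, 4323 and 5455 CPM in the bottom ones. Ribosome biogenesis and MYC genes had 10437, 5651 and 8896 CPM against 7492, 4859 and 7869 CPM. Cytosolic ribosomal protein genes were higher in the top tercile in all 3 libraries as well, at 132014 against 108416 CPM in homozygous cells. Secondary and tertiary granule genes ran the other way, with 6848, 15698 and 8102 CPM in the top and 12486, 20587 and 11544 CPM in the bottom terciles. S100a9, a calcium-binding protein of maturing neutrophils, was lower in the top tercile in each library, at 1396 against 2523 CPM in homozygous, 4235 against 7484 CPM in heterozygous and 1898 against 3052 CPM in wild-type cells. Hox, Meis and Pbx genes were likewise lower in the top tercile of all 3 libraries, and Erg, an ETS factor of early progenitors, and Atf3, a stress-induced factor, were among the 15 genes with the clearest deficit there. Erg had 37.2 and 59.4 CPM in the top and bottom terciles of the homozygous library, 46.4 and 85.3 CPM in the heterozygous and 19.5 and 34.8 CPM in the wild type.

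**Figure D3:**
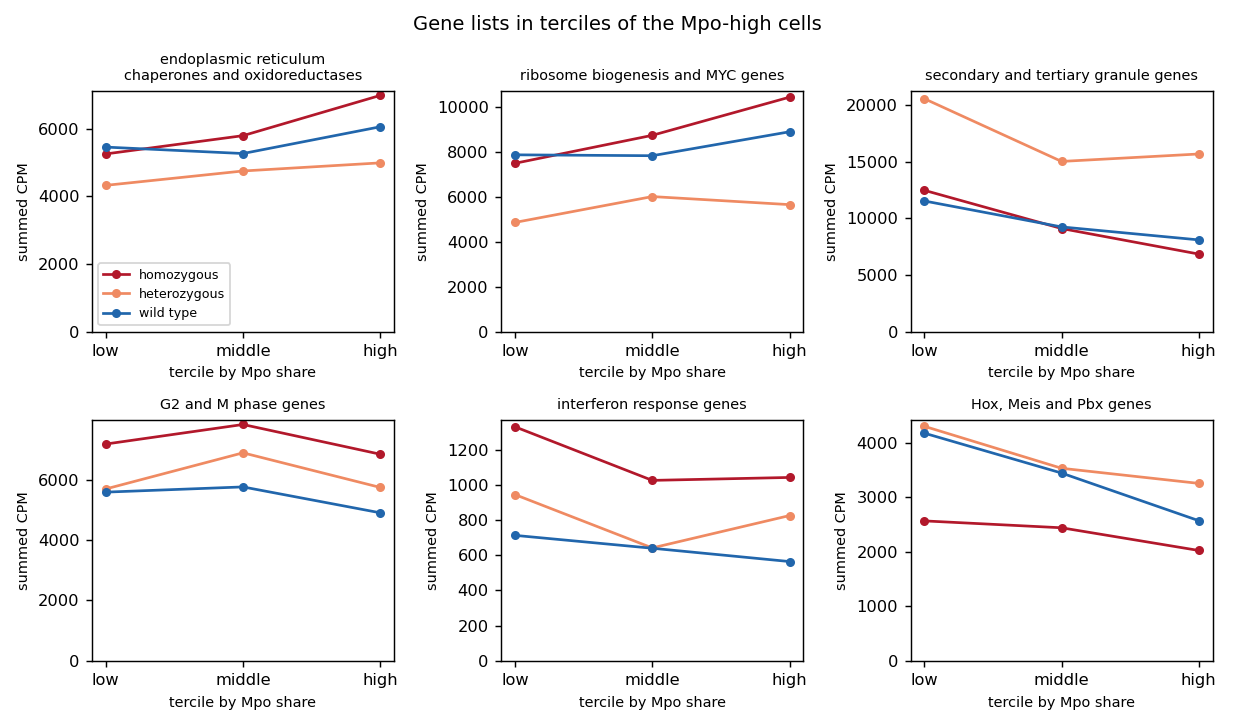
Summed CPM of 6 gene lists in terciles of the Mpo-high cells by Mpo share, each point being the sum over the cells of 1 library. Chaperone and MYC sums are highest in the top tercile of the homozygous and wild-type libraries, while secondary granule sums are highest in the bottom tercile of all 3.

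Across all genes, 9762 could be compared between homozygous and wild-type Mpo-high cells, having 50 or more UMIs in the 2 libraries together. Of these, 8.05% were higher by 1.5-fold or more and 6.23% lower, around a median log2 ratio of 0.08. Of 9578 genes compared for the heterozygous library, 12.4% were higher and 7.91% lower, around a median of 0.09. The counts of list members below are read against these shares. Both comparisons share the wild-type library.

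In homozygous cells, the primary granule genes were mostly close to wild type. Of 24 genes compared from the primary granule list, 1 was higher by 1.5-fold or more and 4 were lower, with a list median of 0.11. The gene past the fold was Ctsg, at 2226 CPM in homozygous and 1469 CPM in wild-type cells (log2 ratio 0.60, 0.55 to 0.65). With equal weight per cell that ratio was 0.12, below the fold. Elane had a ratio of 0.06, and Mpo, which the choice holds near one level in all libraries, 0.06. Cst7, cystatin F, had 30.7 CPM against 50.7 CPM (-0.72, -1.08 to -0.38). Anxa1 and the stefin Stfa2 were also past the fold on the lower side, and neither is among the primary granule proteins described above. Of 25 chaperones, 2 were higher and 0 lower: Hyou1, a large chaperone of the secretory pathway, at 54.2 and 31.0 CPM, and Creld2, at 37.6 and 24.5 CPM. Ern1, the IRE1 sensor of unfolded protein stress, was lower, at 189 CPM in homozygous and 386 CPM in wild-type cells (-1.03, -1.17 to -0.90). Of 18 secondary granule genes, 7 were lower and 0 higher, including Ngp (111 and 280 CPM) and Lcn2, lipocalin 2 (71.5 and 191 CPM), while Camp, cathelicidin, was 1033 and 815 CPM. That list's median, -0.20, turned to 0.03 with the highest 2.5% of cells taken.

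Mitotic and interferon-induced genes were higher in the homozygous cells, and monocyte markers moved with them. Of the 9 monocyte markers, 4 were higher by 1.5-fold or more and 1 lower, with a median of 0.39, and their part in the result was not tested. Of 48 G2 and M phase genes, 28 were higher by 1.5-fold or more and 0 lower, with a median log2 ratio of 0.66. Mki67, the proliferation antigen, had 221 CPM in homozygous and 124 CPM in wild-type cells, and Cenpe, a spindle motor protein, 82.2 and 38.5 CPM (1.09, 0.83 to 1.35). After thinning to 2000 UMIs, 33.6% of homozygous cells and 18.01% of wild-type cells had an Mki67 UMI, and the median cell had 11 and 8 UMIs of G2 and M phase genes. Of the thinned T cells, 7 of 28 homozygous and 2 of 22 wild-type ones had an Mki67 UMI. Of 42 S phase genes, 9 were higher and 0 lower, with a median of 0.26. Of 32 interferon response genes, 19 were higher and 0 lower, with a median of 0.65. Isg15, a ubiquitin-like interferon-induced protein, had 26.6 CPM in homozygous and 6.49 CPM in wild-type cells (2.03, 1.48 to 2.61), and Oas2, a sensor of double-stranded RNA, 13.8 and 3.62 CPM. Both lists also differed between the other kept cells of these libraries, with medians of 0.78 for the G2 and M phase and 0.85 for the interferon genes.

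**Figure D4:**
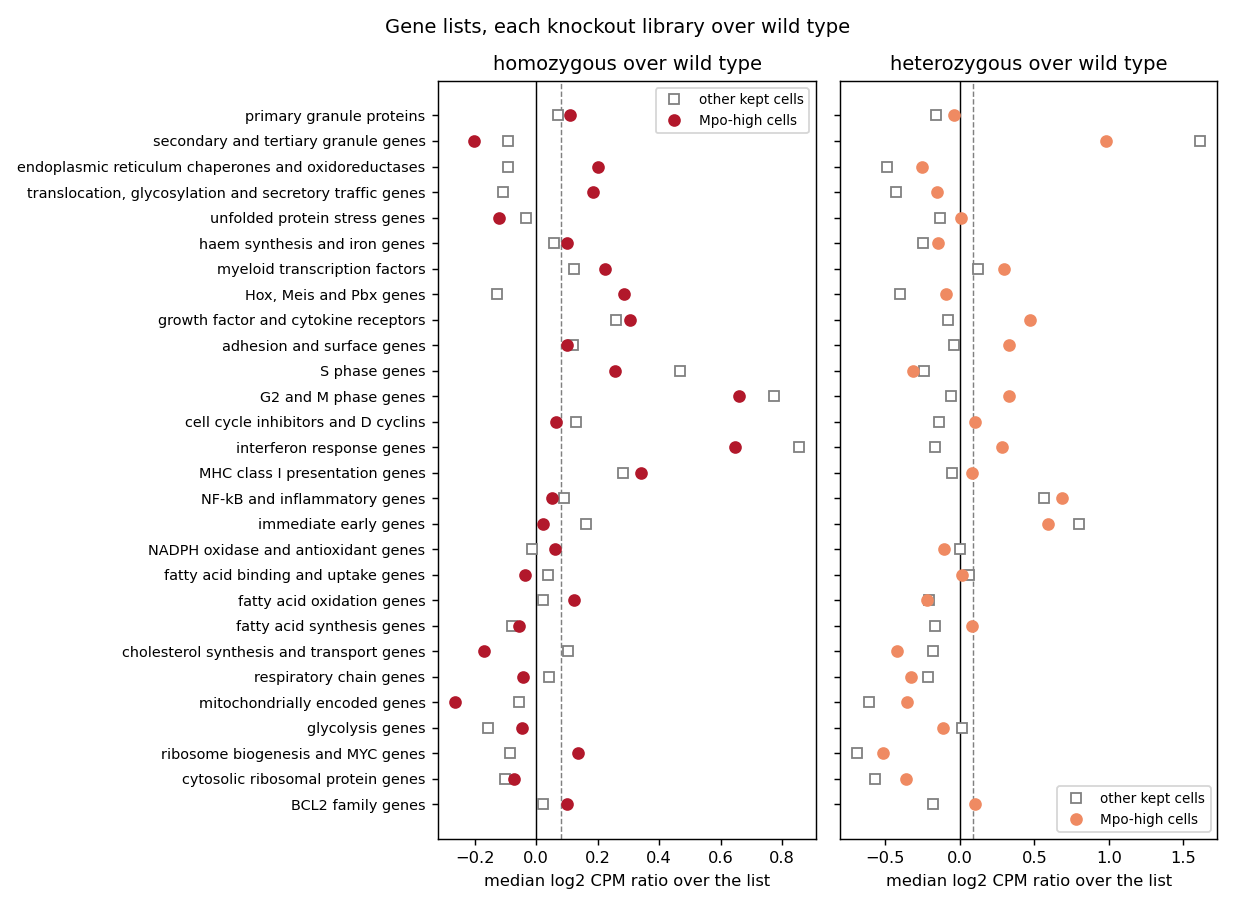
Median log2 CPM ratio of each gene list, knockout over wild type, in Mpo-high cells (filled) and in other kept cells (open squares); the dashed line is the median of all genes compared. G2 and M phase and interferon lists lie at 0.66 and 0.65 in the homozygous panel, and secondary granule genes at 0.98 in the heterozygous panel.

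The homeobox genes split in homozygous cells. Pbx3, a cofactor that binds DNA with Hox proteins, was the most abundant of the 12 genes ranked lowest, with 120 CPM in homozygous, 957 CPM in heterozygous and 1053 CPM in wild-type cells. Only the homozygous value was low (log2 ratio over wild type -3.14, -3.29 to -2.98). After thinning, 14.8% of homozygous, 74.8% of heterozygous and 73.1% of wild-type cells had a Pbx3 UMI, and 7.14%, 18.8% and 27.3% of T cells. The other kept cells had 213, 1030 and 1264 CPM, so the low value was also found outside the Mpo-high cells. Hoxa9 was higher, at 428 CPM in homozygous against 253 CPM in wild-type cells (0.76, 0.65 to 0.87), and Hoxa10 at 79.1 against 39.3 CPM (1.01, 0.75 to 1.27). Meis1, their partner, was at 601 against 980 CPM.

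Fabp5 was the fatty acid gene that differed most in the homozygous cells. It encodes the epidermal fatty acid-binding protein, a close relative of Fabp4. It had 73.6 CPM in homozygous, 18.3 CPM in heterozygous and 18.6 CPM in wild-type Mpo-high cells (log2 ratio 1.99 for homozygous over wild type, 1.66 to 2.32). The heterozygous over wild-type ratio was -0.02, with an interval of -0.58 to 0.51 around 0. The other kept cells had 38.4, 15.4 and 25.2 CPM. After thinning, a Fabp5 UMI was in 10.7% of homozygous, 2.22% of heterozygous and 2.77% of wild-type Mpo-high cells, and in 3 of 28, 0 of 16 and 0 of 22 T cells. The homozygous share of 10.7% was also that of the T cells of its library, whose Fabp5 level was 81.5 CPM, and T cells can themselves express Fabp5. The part of RNA from other cells in the Fabp5 level was not tested. Fabp5 was highest in the top tercile of homozygous cells, at 112 CPM against 30.5 CPM in the bottom one. It lies at chr3:10012548-10016607, 187.5 kb from Fabp4 at chr3:10204088-10208576 in the GENCODE annotation of GRCm38. Of the other genes within 500 kb, Impa1 had 61.5, 37.1 and 40.8 CPM, Pag1 101, 173 and 109 CPM and Zfand1 13.8, 9.85 and 12.7 CPM. These neighbours were looked up after the Fabp5 value was seen. Of 14 fatty acid binding and uptake genes compared, 2 were higher and 3 lower in the homozygous cells. Of 23 fatty acid oxidation genes, 3 were higher and 1 lower. Cpt1a, the entry step of fatty acids into mitochondria, was the lower one, at 24.5 against 46.2 CPM, and Decr1 was higher, at 15.2 against 6.34 CPM.

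The genes ranked first in the homozygous comparison, by the interval bound nearest to 0, were Xlr4a, Zfp791, Cdk5rap1, Lars2, Il31ra and Fabp5 on the higher side. Lars2, mitochondrial leucyl-tRNA synthetase, had 755 CPM in homozygous, 207 CPM in heterozygous and 182 CPM in wild-type cells, and 776, 280 and 248 CPM in the other kept cells. Cdk8, a Mediator kinase, had 606, 200 and 182 CPM. On the lower side were Elavl2, Slc40a1, Pbx3, Wdr66, Zc3h12c and Serpina3g. Slc40a1, the iron exporter ferroportin, had 0 UMIs in homozygous cells, which allows up to 1.27 CPM, against 5.16 CPM in heterozygous and 12.2 CPM in wild-type cells. Wdr66 and Elavl2 were low in both knockouts, Wdr66 at 6.56, 2.81 and 79.1 CPM and Elavl2 at 0.35, 0 and 27.3 CPM, so the wild-type library was the one apart. In the other kept cells all 12 genes on each side had the same sign, and 12 of the higher and 9 of the lower were past 1.5-fold. Of the named lower genes, Cftr was an exception there, at 12.5 and 14.4 CPM in the other homozygous and wild-type cells, against 20.7 and 93.2 CPM in the Mpo-high ones.

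**Figure D5:**
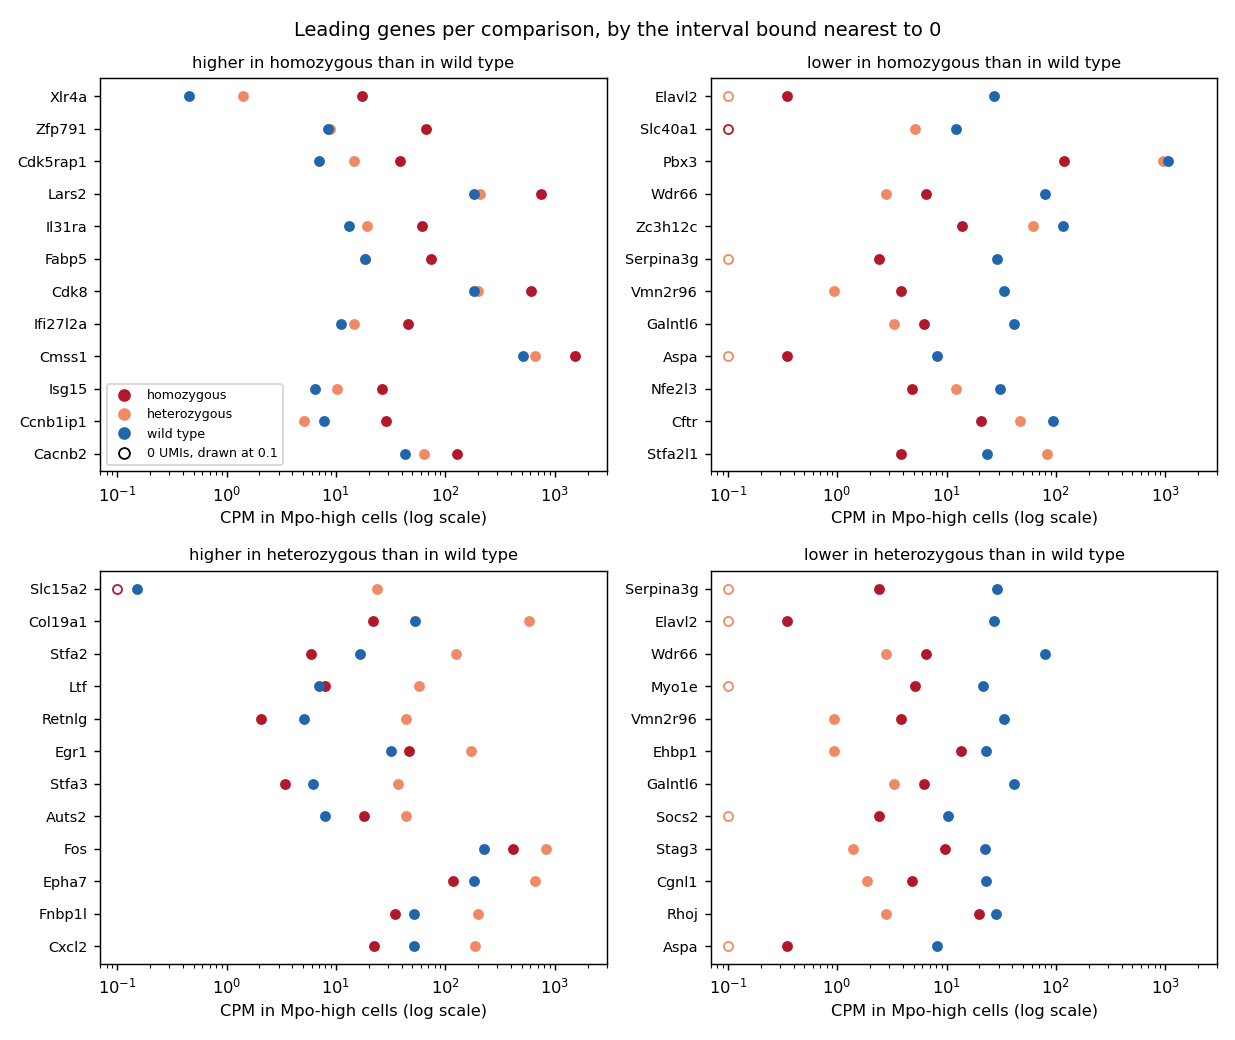
CPM in Mpo-high cells of each library (log axis) for the 12 genes ranked first on each side of each comparison; open symbols mark 0 UMIs and are drawn at 0.1. Most genes on the homozygous higher side have heterozygous and wild-type values close together, while on the 2 lower sides several genes are low in both knockout libraries.

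In heterozygous cells, RNA of later neutrophil stages was higher. Of 20 secondary and tertiary granule genes compared, 12 were higher by 1.5-fold or more and 1 lower, with a median log2 ratio of 0.98. Ltf, lactoferrin, had 57.7 CPM in heterozygous and 6.95 CPM in wild-type cells (3.05, 2.55 to 3.58), Ngp 759 and 280 CPM, and S100a9 5313 and 2349 CPM. Ltf, Ngp, Camp and Lcn2 were used to leave cells out. The same list had a median of 1.61 in the other kept cells, whose summed level was 90882 CPM in heterozygous and 30040 CPM in wild-type cells. Ngp was in 67.4% of thinned heterozygous and 21.9% of thinned wild-type Mpo-high cells, and in 68.8% and 13.6% of T cells. By share, Ngp in the heterozygous Mpo-high cells was no higher than in the 16 T cells of its library, while Camp was in 85.9% of these Mpo-high cells and 68.8% of the T cells. The part of RNA from other cells was not tested.

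Immediate early and inflammatory genes were also higher in heterozygous cells. Of 20 immediate early genes, 10 were higher and 0 lower (median 0.59), and of 19 NF-kB and inflammatory genes 11 were higher and 1 lower (median 0.69). Fos had 842 CPM in heterozygous and 225 CPM in wild-type cells (1.90, lower bound 1.80), Egr1 173 and 32.2 CPM (2.42, 2.18 to 2.67), and the chemokine Cxcl2 188 and 52.0 CPM. In Xist-only cells Fos was 1246 CPM in the heterozygous and 225 CPM in the wild-type library, and in Y-only heterozygous cells it was 711 CPM. The immediate early list had a median of 0.80 in the other kept cells, and the NF-kB and inflammatory list 0.56.

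Ribosome biogenesis and MYC genes were lower in heterozygous cells. Of 38 such genes compared, 12 were lower and 0 higher, with a median of -0.51. The same list had a median of -0.69 in the other kept cells, so the lower level was not particular to the Mpo-high cells. Srm, spermidine synthase and a MYC target, had 30.5 CPM in heterozygous and 76.3 CPM in wild-type cells (-1.32, -1.72 to -0.95), C1qbp 74.1 and 158 CPM, and Nme1 179 and 321 CPM. Myc itself was 42.2 and 37.9 CPM. The summed list had 6037 CPM in Xist-only and 5351 CPM in Y-only heterozygous cells, against 8207 CPM in Xist-only wild-type cells. Of 42 S phase genes, 9 were lower and 0 higher, yet 9 of 48 G2 and M phase genes were higher and 0 lower. The G2 and M phase median, 0.33, was 0.07 with the top 10% of cells and 0.09 with the stricter filter on UMIs and mitochondrial share. After thinning, the median cell had 8 UMIs of G2 and M phase genes in the heterozygous and 8 in the wild-type library. Cells with 5 or more such UMIs were 77.0% of heterozygous and 81.7% of wild-type ones. The S phase median, -0.31, turned to 0.02 in Xist-only cells. In the other kept cells the S phase median was -0.24 and the G2 and M phase median -0.06. Of 25 chaperones, 1 was lower, Sdf2l1, at 115 against 196 CPM. Among the primary granule genes, Elane had 6148 CPM in heterozygous and 8457 CPM in wild-type cells (-0.46, -0.49 to -0.43), below 1.5-fold, and Cst7 13.1 and 50.7 CPM. The 1 gene of that list past the fold on the higher side was Stfa2, a stefin that is not among the primary granule proteins described above. Of 20 cholesterol genes, 6 were lower and 0 higher, with a median of -0.42 that was -0.10 in Xist-only cells and turned to 0.18 when thinned, where 3 genes could be compared.

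Of 20 growth factor and cytokine receptors, 6 were higher and 1 lower in heterozygous cells, with a median of 0.47 that was 0.22 in Xist-only cells. Of 31 myeloid transcription factors, 10 were higher and 1 lower in heterozygous cells, and 5 were higher and 3 lower in homozygous cells. Irf8, a factor of the monocyte branch, had 75.6 CPM in homozygous, 70.8 CPM in heterozygous and 31.6 CPM in wild-type cells, higher in both knockouts. After thinning, 10.7%, 13.3% and 6.93% of Mpo-high cells had an Irf8 UMI, against 17.9%, 12.5% and 27.3% of T cells, which can themselves express Irf8. The share was not above that of T cells in the homozygous and wild-type libraries, and was close to it in the heterozygous one. In heterozygous cells it was 90.7 CPM in Xist-only and 39.7 CPM in Y-only cells. Id1, an inhibitor of helix-loop-helix factors, was lower in both, at 194, 198 and 450 CPM. Cebpe, which drives the move to secondary granules, differed little, at 185, 206 and 183 CPM. Csf3r, the granulocyte colony-stimulating factor receptor, had 48.7, 73.7 and 31.3 CPM, and Csf2rb, the shared chain of the interleukin 3 and granulocyte-macrophage receptors, 29.0, 19.7 and 50.9 CPM. Mecom had 679 CPM in heterozygous and 290 CPM in wild-type cells (1.23, 1.13 to 1.33), although the other kept cells had 696 and 899 CPM, the opposite order. Hoxa9 was lower, at 164 against 253 CPM (-0.62, -0.79 to -0.46), the opposite of the homozygous cells.

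The genes ranked first on the heterozygous higher side were Slc15a2, Col19a1, Stfa2, Ltf, Retnlg and Egr1, and on the lower side Serpina3g, Elavl2, Wdr66, Myo1e, Vmn2r96 and Ehbp1. Slc15a2, a peptide transporter, had 0 CPM in homozygous, 23.9 CPM in heterozygous and 0.15 CPM in wild-type cells. Col19a1, a collagen chain, had 21.8, 580 and 52.9 CPM. Socs2, a feedback inhibitor of cytokine receptors, had 2.42, 0 and 10.4 CPM. All 12 genes on each side kept their sign in the other cells, with 10 and 11 past 1.5-fold.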

How the data were processed

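Per the labels' protocols, libraries were made with Chromium Single cell 3' v3 kits. The deposited matrices hold UMI counts per gene and barcode, made with Cell Ranger 8.0.1 per the file headers, while the submitters' processing notes list STAR and the mm10 build. The annotation release is not given in the sources used here. Libraries total 54160590, 78426908 and 77173735 UMIs (homozygous, heterozygous, wild type), and intervals cover counting error only. Pairs of libraries shared 21 to 26 barcodes, too few to bear on the sums.

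Members and lists were chosen with earlier results of these data known. UMIs were summed per library and cell set, giving CPM. Intervals are 95% exact Poisson, exact conditional (ratios), Clopper-Pearson (shares) and Newcombe (differences of shares). Medians add 0.5 UMIs to each count. Scrublet's automatic doublet calls marked 3, 0 and 1 barcodes and so had not worked. Cells were not removed, and leaving out the top-scoring barcodes at 0.8% per 1000 barcodes was an alternative. Named genes are the 12 per side ranked by the interval bound nearest to 0, among genes with 50 UMIs in 1 of the 2 libraries. Globin, ribosomal, mitochondrial, antigen receptor and unnamed genes were excluded from the ranking. Of sex-linked genes, only Xist, Tsix, Ddx3y, Eif2s3y, Kdm5d and Uty were excluded, and other X-linked genes stayed in. Also named are up to 4 genes per list past 1.5-fold, the markers and the 15 genes highest over other cells. Some list genes were named after their values were seen. The interval code was tested on simulated data. Alternatives varied the filters, the Mpo limit, the Cd34 and secondary granule criteria, doublets, weighting, thinning and minimum UMIs. Python 3.11.15, numpy 2.4.6, scipy 1.17.1, pandas 2.3.3 and scanpy 1.11.5 were used.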

Additional observations from a re-analysis of the deposited data

How the results depend on the processing

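No paired analysis was possible because each genotype has 1 library. The heterozygous minus wild-type share difference was -2.63 points with the top 2.5% of cells by Mpo share, -7.02 with the top 10% and -0.811 with the top 5% within each library. It was -3.24 with 1000 UMIs and mitochondrial share under 5%, -5.68 with Cd34 cells kept and -8.48 with only granulocyte-lineage cells counted. A limit within each library fixes the share over it. The homozygous difference was -0.761, -0.0374, -0.120 and -3.54 points with the top 10%, the per-library limit, the stricter filter and only granulocyte-lineage cells counted. Genes past 1.5-fold were 786 higher and 608 lower in the homozygous and 1188 and 758 in the heterozygous comparison. Thinned, they were 365, 285, 527 and 309, and with 200 UMIs required 279, 232, 624 and 305, where fewer genes were compared. In Xist-only cells, an alternative chosen after seeing the data, 1330 were lower in the heterozygous comparison. That count rests on 25 heterozygous cells against 365 wild-type cells. It cannot be read beside 758, because far fewer heterozygous UMIs enter it.

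Of the list medians more than 0.2 from 0, 7 values crossed 0. Medians nearer to 0 crossed it as well, such as fatty acid oxidation in homozygous cells, at 0.12 and at -0.16 with equal weight per cell. The secondary granule median in homozygous cells became 0.032 (top 2.5%) and 0.019 (per library), and the mitochondrially encoded median 0.060 with equal weight per cell. In heterozygous cells the interferon median became -0.010 with Cd34 cells kept, the cholesterol median 0.18 when thinned to 3 genes, and the chaperone and S phase medians 0.014 and 0.024 in Xist-only cells. The cause was not tested. Of gene ratios under the alternatives, 186 moved and 655 did not. Members with Y-linked RNA alone could not be compared, since wild type has 0 such cells.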
